A study of Mus musculus with 6 samples.

Results

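The genes of retinoic acid synthesis, binding and breakdown were examined in the uteri of control females and of *Gp130* ecKO females. The members were chosen by name, from gene identifiers mapped to mouse symbols, and are 9 of the 56748 genes in the deposited tables: *Rbp4*, *Stra6*, *Rdh10*, *Dhrs3*, *Aldh1a1*, *Aldh1a2*, *Aldh1a3*, *Crabp2* and *Cyp26a1*. Uteri of C57BL/6 females (C57BL/6J in the study's methods) were collected on day 4 of pregnancy at 1600 h, ahead of embryo attachment, with 3 uteri in each group. *Gp130* ecKO females were *Ltf* iCre/+ and carried floxed *Gp130* on both chromosomes, and *Ltf*-iCre acts in the uterine epithelium of sexually mature females. The labels call the control females WT, and the methods of the study describe them as floxed *Gp130* females without iCre or as wildtype. All females were sexually mature and had been mated with fertile wildtype males. *Gp130* encodes the receptor subunit through which leukemia inhibitory factor (LIF) activates STAT3, and the comparison asks which transcripts differ when the epithelium lacks it.

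Retinol circulates bound to RBP4 and enters cells through STRA6. RDH10 oxidizes it to retinaldehyde, which DHRS3 reduces back, and the ALDH1A enzymes turn retinaldehyde into retinoic acid. Inside the cell, retinoic acid is bound by CRABP proteins. It acts through nuclear retinoic acid receptors (RAR), which act with retinoid X receptors (RXR), or is oxidized and removed by CYP26 enzymes. In the uterus retinoid signaling is known for its part in stromal decidualization, and *Cyp26a1* is known as a gene of the epithelium around implantation.

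*Cyp26a1* had the fold change furthest below 0 of the members, and the bases upstream of its transcription start are shown because the gene is known to respond to retinoic acid. The sequence is 250 bases read 5′ to 3′ from GRCm39, ending at the base before the start of the Ensembl canonical transcript. These bases lie at chr19:37685991-37686240 on the plus strand, which is also the strand of *Cyp26a1*. Capitals mark a DR5, which is a direct repeat of the short motif that retinoic acid receptors bind with 5 bases between its 2 copies.
Cyp26a1: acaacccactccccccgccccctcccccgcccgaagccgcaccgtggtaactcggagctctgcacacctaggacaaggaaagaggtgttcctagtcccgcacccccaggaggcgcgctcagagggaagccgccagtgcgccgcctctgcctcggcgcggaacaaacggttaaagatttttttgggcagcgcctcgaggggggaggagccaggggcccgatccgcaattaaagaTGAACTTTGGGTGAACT

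The DR5 of *Cyp26a1* lies on the minus strand and covers the bases from 17 to 1 upstream of the start, where it reads TGAACTTTGGGTGAACT on the gene's strand. A further DR5, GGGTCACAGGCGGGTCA, lies from 1884 to 1868 bases upstream. On both strands, a DR5 was present within 250 bases upstream of 12 of 21761 protein-coding genes (0.0551%) and within 2000 bases upstream of 164 (0.754%). The palindrome TTCNNNGAA, the core of STAT sites, was present within 2000 bases of 49.4% of genes. Among the members it was found upstream of *Stra6*, *Aldh1a1*, *Aldh1a3* and *Cyp26a1*, in *Cyp26a1* at 1766 to 1758 and at 268 to 260 bases, and none of these matches overlapped a DR5. A match is only a run of letters and not a site shown to be bound.

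Total expected counts were between 13960748, in control 3, and 25906443, in control 2. Values are given as CPM, in which rounded expected counts are divided by library sizes scaled with TMM, unless another unit is named. *Il6st*, the symbol of *Gp130*, was lower in each *Gp130* ecKO uterus (between 349.8 and 388 CPM) than in any control uterus (between 452 and 678 CPM), and edgeR's quasi-likelihood test gave it an adjusted p of 0.120. The labels name the tissue as uterus and the series' design text as endometrium, so it is unsure how much muscle was taken. In tissue of several cell types, fewer cells of a type and less RNA per cell cannot be told apart. Stromal markers were lower in *Gp130* ecKO in 7 of 7 genes, with a summed level of 1575 to 1715 TPM (the deposited unit, scaled for transcript length and depth) in the control and 835 to 1198 TPM in *Gp130* ecKO. General epithelial markers were higher in 5 of 6, with 1194 to 1894 TPM in the control and 3010 to 4506 TPM in *Gp130* ecKO. Smooth muscle markers summed to between 234 and 1583 TPM over all uteri and overlapped between the groups, and a list of 4 blastocyst markers to between 1.24 and 10.35 TPM. Of these 4, *Pou5f1* and *Cdx2* had at most 3 counts in every uterus, *Nanog* at most 0.317 CPM and *Elf5* between 1.01 and 10.6 CPM.

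Of the 9 members, 8 passed the filter on low counts, and *Aldh1a3* did not. With an FDR below 0.05 and more than 2-fold change in edgeR's quasi-likelihood test, 0 members were called, and 26 of all 16605 tested genes were (0.157%). At an unadjusted p below 0.05 there were 4 members, *Crabp2* higher and *Rbp4*, *Aldh1a2* and *Cyp26a1* lower, against 25% of all tested genes. The groups did not overlap in 3 members, *Crabp2*, *Aldh1a2* and *Rbp4*, against 31.3% of all tested genes. Without control 2 the groups did not overlap in 6 members, against 45.6% of all tested genes. edgeR's exact test called 3 members and 7.54% of all tested genes, its likelihood ratio test called the same 3 and 7.93%, and DESeq2 called the same 3 and 9.69% of the 15916 genes to which it gave an adjusted p. These 3 were *Crabp2*, *Aldh1a2* and *Cyp26a1*. With the quasi-likelihood test, 2 members, *Crabp2* and *Aldh1a2*, were called at an FDR below 0.1, against 5.16% of all tested genes. Without control 2 it called 2 members, *Crabp2* and *Cyp26a1*, against 5.23%. The median log2 fold change was 0.08 over the 8 tested members and −0.05 over all tested genes.

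**Figure D1:**
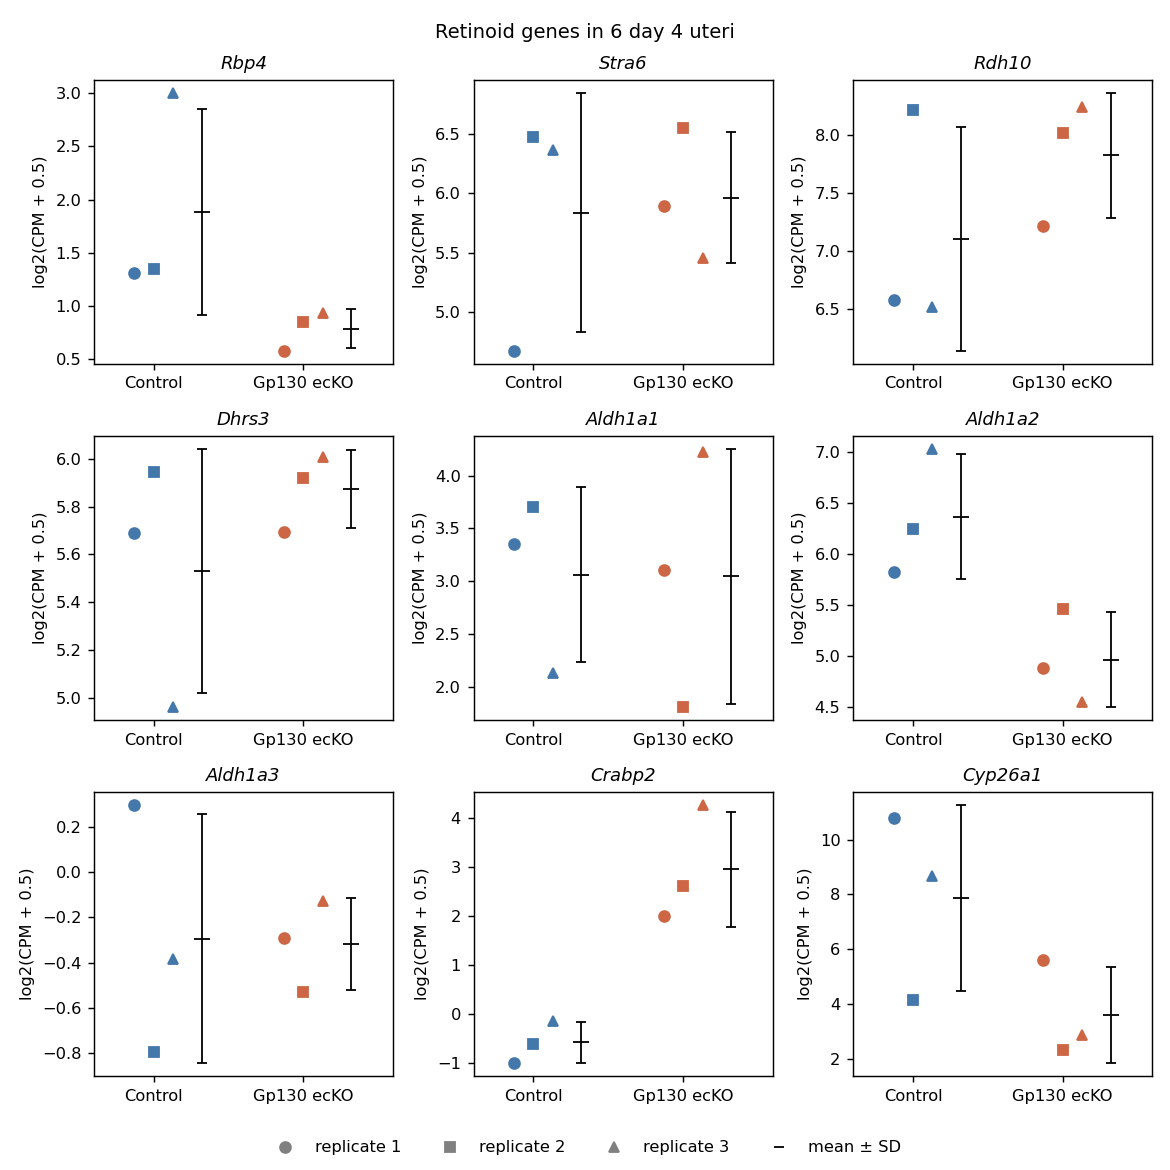
Level of each of the 9 members in each uterus, as log2(CPM + 0.5) on the vertical axis, for control (blue) and *Gp130* ecKO (orange), with the mean and SD of the log values beside the points. The groups are apart for *Rbp4*, *Aldh1a2* and *Crabp2* and overlap in the other panels, and control 2 is far below controls 1 and 3 for *Cyp26a1*.

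Retinol transport was represented by *Rbp4* and *Stra6*. *Rbp4* (ENSMUSG00000024990, GRCm39 chromosome 19, 38105066 to 38113754), the plasma carrier of retinol, had 1.98, 2.04 and 7.53 CPM across control uteri 1 to 3, against 0.995, 1.31 and 1.41 CPM across *Gp130* ecKO uteri 1 to 3. All *Gp130* ecKO uteri were below all control uteri, and control 3 stood well above the others. Its fitted log2 change was −1.59 (standard error (SE) 0.61, edgeR adjusted p = 0.167), and −0.70 without control 3. These values rest on 215 counts in the control and 90 in *Gp130* ecKO, and 7.95% of the stretches of 75 bases in *Rbp4* also occur in *Ffar4* on the opposite strand. *Rbp4* is a known product of liver and adipocytes. A list of 5 adipocyte markers summed to between 4.24 and 13.9 TPM in the control and between 0.47 and 4.06 TPM in *Gp130* ecKO, and *Lep* had at most 3 counts in every uterus. *Adipoq* and *Plin1* also fell under the filter on low counts, with at most 0.656 and 0.270 CPM in any uterus. The 2 tested markers were *Cfd*, with 0, 5.09 and 4.87 CPM across control uteri 1 to 3, and *Fabp4*, with 2.87, 3.20 and 2.53 CPM. The part of adipocytes in the value of *Rbp4* was not tested.

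*Stra6* (ENSMUSG00000032327, chromosome 9, 57970967 to 58063543), the membrane receptor that takes up retinol from RBP4, had 25.1, 88.3 and 81.8 CPM across control uteri 1 to 3. Across *Gp130* ecKO uteri 1 to 3 it had 58.9, 92.9 and 43.3 CPM. The groups overlapped, with both the lowest uterus, control 1, and the second highest, control 2, among the controls. The log2 fold change was 0.00036 (SE 0.48, edgeR adjusted p = 0.9997), with a range from −0.36 to 0.33 when each uterus was left out in turn.

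Interconversion of retinol and retinaldehyde was represented by *Rdh10* and *Dhrs3*. *Rdh10* (ENSMUSG00000025921, chromosome 1, 16175555 to 16203958), which makes retinaldehyde, had 95.0, 296 and 91.1 CPM across control uteri 1 to 3, against 148, 258 and 302 CPM across *Gp130* ecKO uteri 1 to 3. Controls 1 and 3 were below every *Gp130* ecKO uterus, and control 2 was among them. Its fitted log2 change was 0.56 (SE 0.50, edgeR adjusted p = 0.505), 1.38 without control 2 (edgeR adjusted p = 0.0598), 0.31 without control 1 and 0.27 without control 3 (edgeR adjusted p = 0.794). *Dhrs3* (ENSMUSG00000066026, chromosome 4, 144619245 to 144654779), which returns retinaldehyde to retinol and is known to be induced by retinoic acid, had 51.1, 61.0 and 30.7 CPM across control uteri 1 to 3. Across *Gp130* ecKO uteri 1 to 3 it had 51.2, 60.1 and 63.8 CPM. Apart from control 3, the uteri of both groups lay within the same range, and the log2 fold change was 0.29 (SE 0.26, edgeR adjusted p = 0.504), 0.056 without control 3 and 0.54 without control 2. The ratio of *Rdh10* to *Dhrs3* in deposited TPM was 0.921, 2.31 and 1.64 across control uteri 1 to 3, against 1.27, 1.82 and 2.21 across *Gp130* ecKO uteri 1 to 3, so it also overlapped between the groups.

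**Figure D2:**
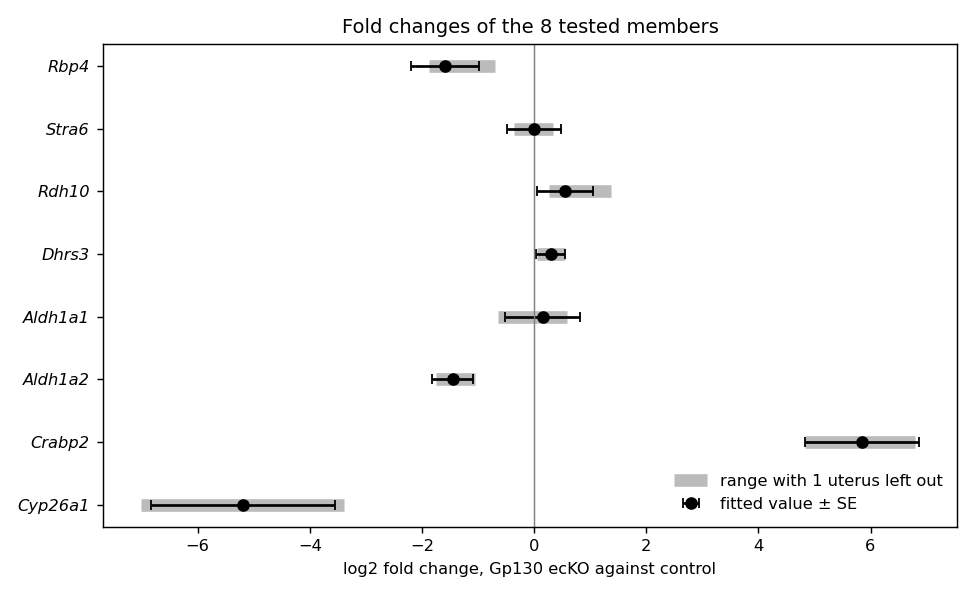
Fitted log2 fold change (*Gp130* ecKO against control, horizontal axis) of the 8 tested members with its standard error (black), and the range when 1 uterus was left out in turn (grey). The range is 4.84 to 6.80 for *Crabp2* and −7.00 to −3.38 for *Cyp26a1*, whereas *Stra6* and *Aldh1a1* cross 0.

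Among the retinaldehyde dehydrogenases, *Aldh1a2* was lower in all *Gp130* ecKO uteri, whereas *Aldh1a1* and *Aldh1a3* overlapped between the groups. *Aldh1a2* (ENSMUSG00000013584, chromosome 9, 71122630 to 71203527), known as the retinoic acid synthesizing enzyme of uterine stroma, had 55.9, 75.1 and 130 CPM across control uteri 1 to 3. Across *Gp130* ecKO uteri 1 to 3 it had 28.8, 43.6 and 22.8 CPM. The lowest control uterus was 1.28 times the highest *Gp130* ecKO uterus. The log2 fold change was −1.45 (SE 0.37, edgeR adjusted p = 0.0938), a level 2.74-fold lower in *Gp130* ecKO, and leaving out single uteri gave values from −1.75 to −1.05. *Aldh1a2* was called by edgeR's exact test (adjusted p = 0.00898) and by DESeq2 (adjusted p = 0.00614).

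Stromal and endothelial markers were lower along with *Aldh1a2*. All 7 stromal markers had a log2 fold change below 0, with a median of −0.83 and values such as −1.09 for *Hand2*, −0.83 for *Hoxa10* and −0.81 for *Pdgfra*. Of the 7, 5 were lower without overlap between the groups, against 15.6% of all tested genes. *Pdgfra* overlapped between the groups. Endothelial markers were lower in 4 of 4, with a median of −1.23, and 3 were lower without overlap, against 15.6% of all tested genes. They summed to 145 to 312 TPM in the control and 74.2 to 148 TPM in *Gp130* ecKO. Of 5 mesothelial markers, with a median of −0.83, only *Wt1* (−1.36), which is also known in uterine stroma, had an unadjusted p below 0.05 in edgeR or no overlap. Of all tested genes, 12.9% were lower at such a p and 15.6% were lower without overlap. Of the stretches of 75 bases in *Aldh1a2*, 1.73% also occur in other genes on the same strand and 6.65% in genes on the opposite strand. The part of these cell types in the value of *Aldh1a2* was not tested.

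**Figure D3:**
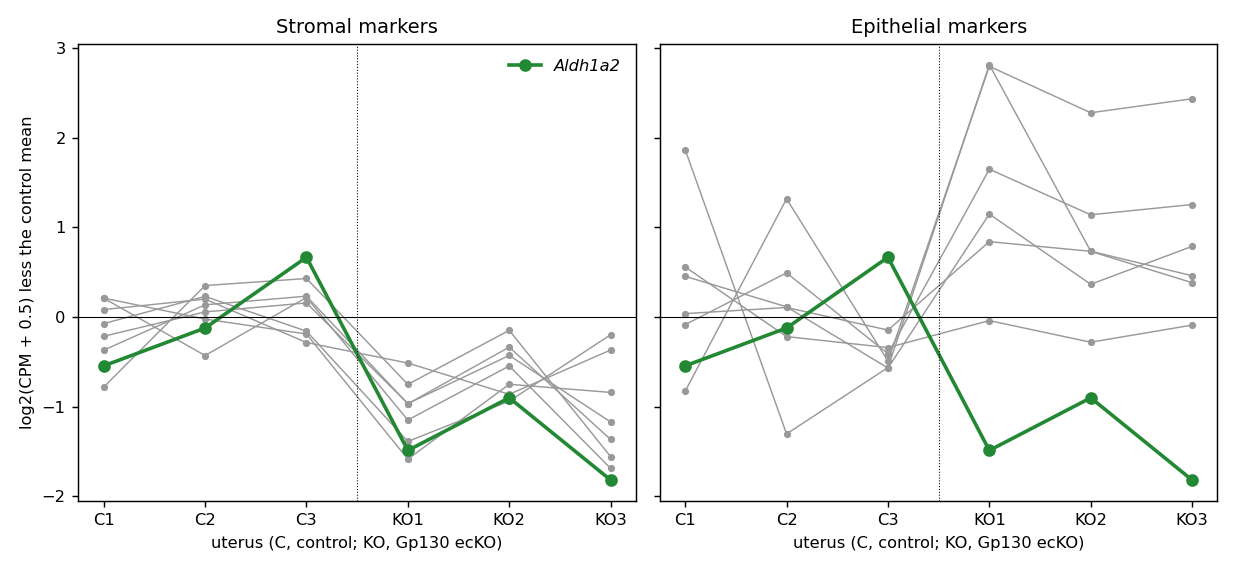
log2(CPM + 0.5) less the control mean (vertical axis) of *Aldh1a2* (green) and of 7 stromal markers (left, grey) or 6 epithelial markers (right, grey) in each uterus. Lines join the values of a gene and show no order of the uteri. *Aldh1a2* and the stromal markers lie below 0 in the *Gp130* ecKO uteri, and 5 of the 6 epithelial markers lie above 0 there.

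*Aldh1a1* (ENSMUSG00000053279, chromosome 19, 20469539 to 20622825) had 9.71, 12.6 and 3.87 CPM across control uteri 1 to 3, against 8.09, 3.00 and 18.2 CPM across *Gp130* ecKO uteri 1 to 3. Both the lowest and the highest uterus belonged to *Gp130* ecKO. Its fitted log2 change was 0.15 (SE 0.66, edgeR adjusted p = 0.899), and −0.65 without *Gp130* ecKO 3. Of its stretches of 75 bases, 0.48% also occur in *Aldh1a7* or a predicted gene on the same strand, and RSEM divides such reads between genes. A further gene on the opposite strand shares 3.99% of them. *Aldh1a3* (ENSMUSG00000015134, chromosome 7, 66040638 to 66077850) had 18, 2 and 4 counts in the controls and 7, 5 and 10 counts in *Gp130* ecKO, which overlapped, and in the fit without a filter its log2 fold change was −0.22 (SE 0.80, edgeR adjusted p = 0.895). Where it passed the filter with a uterus left out, it was between −0.77, without control 2, and 0.017, without *Gp130* ecKO 2.

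The deposited TPM allows the 3 *Aldh1a* genes to be compared per transcript length. Their summed level was 37.8, 53.1 and 85.4 TPM across control uteri 1 to 3, against 24.4, 32.5 and 25.0 TPM across *Gp130* ecKO uteri 1 to 3, with no overlap. *Aldh1a2* gave 83.2%, 83.8% and 96.4% of that sum across control uteri 1 to 3, against 75.2%, 92.3% and 51.6% across *Gp130* ecKO uteri 1 to 3. *Aldh1a1* gave most of the rest, up to 47.4% in *Gp130* ecKO 3, and *Aldh1a3* at most 1.73% in any uterus.

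**Figure D4:**
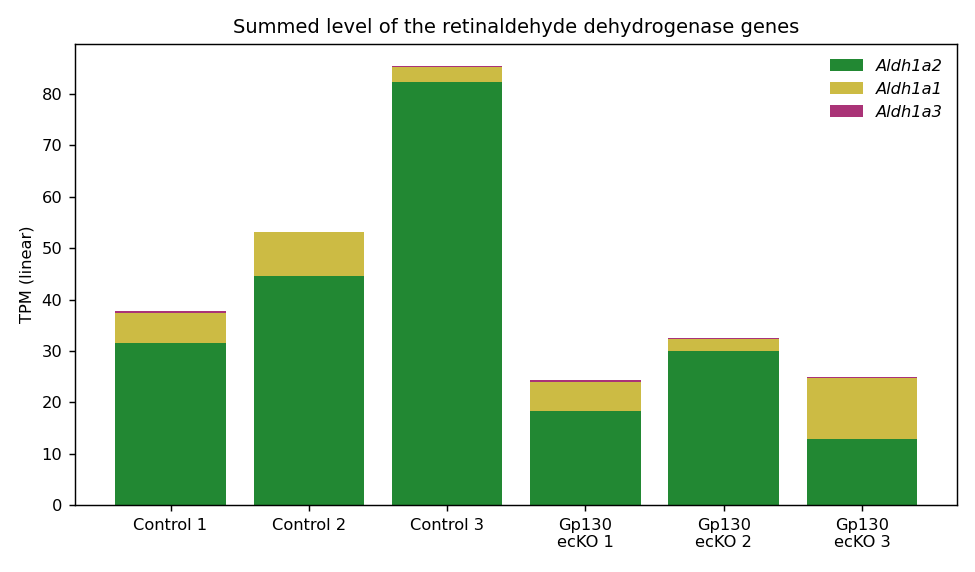
Deposited TPM (vertical axis, linear) of *Aldh1a2*, *Aldh1a1* and *Aldh1a3*, stacked for each uterus. The sum is between 37.8 and 85.4 TPM in the control and between 24.4 and 32.5 TPM in *Gp130* ecKO, and *Aldh1a2* is the main part in every uterus.

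*Crabp2* (ENSMUSG00000004885, chromosome 3, 87855973 to 87860683), which carries retinoic acid to its nuclear receptor, was close to absent in the control and present in every *Gp130* ecKO uterus. It had 0, 4 and 6 counts across control uteri 1 to 3, against 77, 147 and 455 counts across *Gp130* ecKO uteri 1 to 3. In CPM this was 0, 0.154 and 0.400 in the control, where 3 counts in control 1 correspond to 0.121 CPM, and 3.48, 5.65 and 18.9 in *Gp130* ecKO. The groups were far apart, and the lowest *Gp130* ecKO uterus was 8.70 times the highest control uterus, while *Gp130* ecKO 3 was 5.42 times *Gp130* ecKO 1. The log2 fold change was 5.84 (SE 1.01, edgeR adjusted p = 0.0597). Leaving out single uteri gave values from 4.84 to 6.80. The FDR threshold was passed without control 2 (edgeR adjusted p = 0.0496) and with low-count genes kept in the fit (edgeR adjusted p = 0.0407, where 0.351% of genes were called). It was also passed with the read length as a covariate (edgeR adjusted p = 0.0444, where 7 genes were called in all). The same held for edgeR's exact test (adjusted p = 9.47e-05), its likelihood ratio test (adjusted p = 4.30e-05) and DESeq2 (adjusted p = 2.00e-07). Over all 16 alternatives the adjusted p of *Crabp2* lay between 2.00e-07 and 0.162.

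General epithelial markers also were higher in *Gp130* ecKO, with a median log2 fold change of 0.92 over 6 genes. Luminal markers summed to 572 to 1053 TPM in the control and 1280 to 2434 TPM in *Gp130* ecKO. Of these 5 markers, 2 were higher without overlap, against 15.7% of all tested genes. Among the luminal markers, *Calb1* had 126 to 1228 CPM in the control against 1660 to 3390 CPM, and *Ihh* had a log2 fold change of −0.91. Glandular markers overlapped, with 378 to 1661 TPM in the control and 11770, 931.5 and 633 TPM across *Gp130* ecKO uteri 1 to 3. Of these 6 markers, 1 was higher without overlap, against 15.7% of all tested genes. The highest glandular sum comes from *Gp130* ecKO 1 alone. In that uterus *Prss28* and *Prss29*, 2 gland protease genes of the list, had 1876 and 6546 CPM. A list of 4 oviduct and ciliated cell markers summed to 24.4 to 45.8 TPM in the control and 278 to 719 TPM in *Gp130* ecKO. That sum is mostly *Ovgp1*, an oviduct glycoprotein gene, which had 47.9 to 85.3 CPM in the control against 552 to 1193 CPM (log2 fold change 3.68, edgeR adjusted p = 0.0377). The log2 fold change was 2.11 for *Foxj1*, −2.10 for *Dnah5* and −0.20 for *Ccdc39*, and these 3 overlapped between the groups. *Foxj1*, which defines ciliated cells, had at most 3.32 CPM in any uterus. The part of these cell types in the value of *Crabp2* was not tested. *Crabp1*, the paralog of *Crabp2*, had 1.66, 3.51 and 3.80 CPM across control uteri 1 to 3, against 0.271, 0.423 and 1.12 CPM across *Gp130* ecKO uteri 1 to 3. The groups did not overlap, and its direction was opposite to that of *Crabp2*, with a log2 fold change of −2.28 (SE 0.59, edgeR adjusted p = 0.0966).

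*Cyp26a1* (ENSMUSG00000024987, chromosome 19, 37686241 to 37689984), the retinoic acid hydroxylase whose upstream bases carry the DR5 shown above, had 1767, 17.4 and 408 CPM across control uteri 1 to 3. Across *Gp130* ecKO uteri 1 to 3 it had 48.4, 4.50 and 6.84 CPM. Controls 1 and 3 were above every *Gp130* ecKO uterus, but control 2 was below *Gp130* ecKO 1, so the groups overlapped. Among the controls the highest uterus was 101 times the lowest, and among *Gp130* ecKO 10.8 times. Its fitted log2 change was −5.20 (SE 1.64, edgeR adjusted p = 0.123), and the two-sided exact permutation test of 3 uteri against 3 gave p = 0.2, where 0.1 is the smallest it can give. Without control 2 the change was −5.76 (edgeR adjusted p = 0.0442), and without control 1 it was −3.38 (edgeR adjusted p = 0.246). With edgeR's exact test the adjusted p was 0.0177 and with DESeq2 it was 0.0157.

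The other breakdown enzymes and *Lrat*, which esterifies retinol for storage, were set beside *Cyp26a1*. *Cyp26c1* and *Lrat* were picked after their values were seen. *Cyp26b1* had 7.36, 4.16 and 2.60 CPM across control uteri 1 to 3, against 0.904, 2.77 and 0.705 CPM across *Gp130* ecKO uteri 1 to 3 (log2 fold change −1.69, SE 0.62, edgeR adjusted p = 0.157). The groups overlapped only through control 3 and *Gp130* ecKO 2. *Cyp26c1*, which ends 2167 bases before *Cyp26a1* starts on the same strand, had 5.79, 0.308 and 2.93 CPM across control uteri 1 to 3, against 3.16, 0.231 and 0.373 CPM across *Gp130* ecKO uteri 1 to 3. *Lrat* had 121, 1.504 and 98.6 CPM across control uteri 1 to 3, against 30.9, 6.15 and 17.6 CPM across *Gp130* ecKO uteri 1 to 3. For *Cyp26a1*, *Cyp26c1* and *Lrat*, controls 1 and 3 and *Gp130* ecKO 1 were the 3 highest uteri. Of these, *Cyp26c1* and *Lrat* had adjusted p of 0.499 and 0.326 from edgeR.

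**Figure D5:**
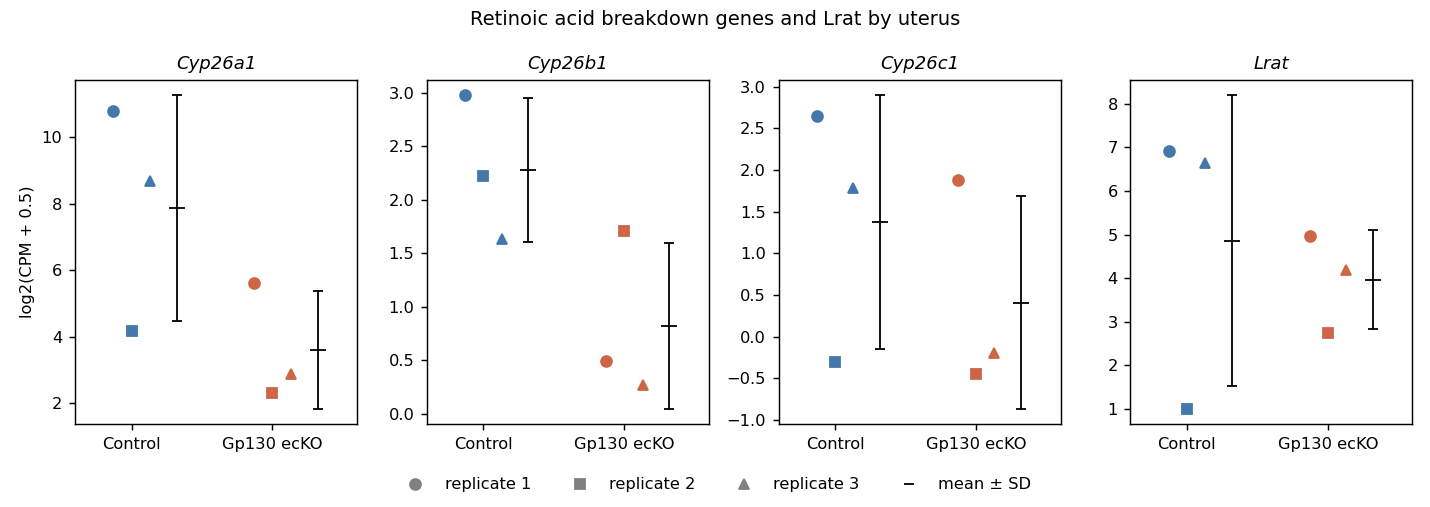
log2(CPM + 0.5) (vertical axis) of *Cyp26a1*, *Cyp26b1*, *Cyp26c1* and *Lrat* in each uterus of the control (blue) and *Gp130* ecKO (orange), with the mean and SD of the log values. Control 2 (square) lies far below controls 1 and 3 for *Cyp26a1*, *Cyp26c1* and *Lrat*, and *Gp130* ecKO 1 (circle) is the highest of its group for these genes.

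The members were ordered per transcript length by their mean TPM in each group. In the control, *Cyp26a1* had the highest mean at 543 ± 654 TPM (SD, n = 3), followed by *Rdh10* at 72.8 ± 47.7, *Aldh1a2* at 52.8 ± 26.4, *Dhrs3* at 43.3 ± 12.3 and *Stra6* at 32.8 ± 18.2 TPM. *Rbp4* at 6.02 ± 5.27, *Aldh1a1* at 5.81 ± 2.88, *Crabp2* at 0.30 ± 0.34 and *Aldh1a3* at 0.21 ± 0.17 TPM were the lowest. Of these neighbours, the ranges of *Aldh1a1* and *Crabp2* were apart and all others overlapped. In *Gp130* ecKO, the order was *Rdh10* at 99.7 ± 31.8 TPM (SD, n = 3), *Dhrs3* at 56.2 ± 8.4, *Stra6* at 35.1 ± 17.5, *Aldh1a2* at 20.4 ± 8.7, *Cyp26a1* at 16.5 ± 20.8 and *Crabp2* at 14.3 ± 11.5 TPM. *Aldh1a1* at 6.63 ± 4.79, *Rbp4* at 1.95 ± 0.35 and *Aldh1a3* at 0.25 ± 0.17 TPM followed, and the ranges were apart only between these last 3. The first place of *Cyp26a1* in the control rests on controls 1 and 3 (1274 and 341 TPM). In control 2 it had 13.3 TPM and was in the fifth place, as in the *Gp130* ecKO mean, and without control 1 its control mean was 177 TPM. The ratio of *Cyp26a1* to the summed *Aldh1a* genes was 33.7, 0.250 and 3.99 across control uteri 1 to 3, against 1.66, 0.124 and 0.197 across *Gp130* ecKO uteri 1 to 3, so that control 2 lay among the *Gp130* ecKO uteri.

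The deposited length less the effective length of genes, which follows the mean read length, had a median just below 75 bases in control 1 and in *Gp130* ecKO 1 and 2, and 75 bases in the other 3 uteri. The difference between the groups was also taken within each of these sets on the scale of log2(CPM + 0.5). It was 3.31 and 4.66 for *Crabp2*, −6.82 and −3.54 for *Cyp26a1*, −0.65 and −2.09 for *Aldh1a2*, −0.59 and −1.24 for *Rbp4*, 1.04 and 0.88 for *Rdh10* and 0.12 and 0.55 for *Dhrs3*. It changed sign between the sets for *Stra6* (1.54 and −0.97), *Aldh1a1* (−0.90 and 1.31) and *Aldh1a3* (−0.71 and 0.46). Each set holds a single uterus of one of the groups, so these values carry no test.

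A wider list of 40 genes of retinoid uptake, storage, oxidation, breakdown and reception was examined beside the members. Of its genes, 29 were tested, 0 were called with edgeR's quasi-likelihood test, and 3 were higher and 4 lower at an unadjusted p below 0.05, against 12.1% and 12.9% of all tested genes. The median log2 fold change was 0.31. edgeR's exact test and DESeq2, with 7.54% and 9.69% of their tested genes called, each called *Dhrs9* and *Crabp1*. *Dhrs9*, a dehydrogenase that can oxidize retinol, had 3.11, 1.43 and 1.33 CPM across control uteri 1 to 3, against 14.1, 4.54 and 17.5 CPM across *Gp130* ecKO uteri 1 to 3. It had no overlap and a log2 fold change of 2.60 (SE 0.59, edgeR adjusted p = 0.0821).

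The nuclear receptors of retinoic acid were examined in the same way. *Rxra* had 55.5 to 80.2 CPM in the control and 94.1 to 114 CPM in *Gp130* ecKO, without overlap (log2 fold change 0.62, SE 0.18, edgeR adjusted p = 0.114). *Rxrb* overlapped between the groups (log2 fold change 0.11, SE 0.19, edgeR adjusted p = 0.737), and *Rxrg* fell under the filter on low counts. *Rarg* had 54.1 to 63.5 CPM in the control and 43.7 to 51.1 CPM in *Gp130* ecKO uteri (log2 fold change −0.31, edgeR adjusted p = 0.266). *Rara* lay between 23.9 and 34.2 CPM in the control and between 26.2 and 31.1 CPM in *Gp130* ecKO uteri (log2 fold change 0.0091, SE 0.20, edgeR adjusted p = 0.980). *Rarb*, a known target of retinoic acid receptors, fell under the filter on low counts with 7, 11 and 10 counts in the controls and 8, 9 and 3 counts in *Gp130* ecKO, which overlapped.

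A list of 18 further genes was drawn up as genes induced by retinoic acid, and its genes are linked to that signaling in either direction. Of these, 13 were tested and 0 were called with edgeR's quasi-likelihood test, against 0.157% of all tested genes. At an unadjusted p below 0.05 in that test, 3 were higher and 3 lower, against 12.1% and 12.9% of all tested genes. The median log2 fold change was −0.07. Genes of this list with at least 1 CPM and no overlap between the groups went both ways. *Nrip1*, a nuclear receptor corepressor, had 33.9, 89.6 and 60.6 CPM across control uteri 1 to 3, against 172, 168 and 133 CPM across *Gp130* ecKO uteri 1 to 3 (log2 fold change 1.36, SE 0.34, edgeR adjusted p = 0.0918). *Rarres2*, which encodes chemerin, had 95.6, 80.7 and 79.3 CPM across control uteri 1 to 3, against 43.6, 43.7 and 44.8 CPM across *Gp130* ecKO uteri 1 to 3 (log2 fold change −0.95, SE 0.15, edgeR adjusted p = 0.0548). The replicates of *Rarres2* were close together in both groups, and its change was less than 2-fold. The transcription factor genes *Tbx1* and *Tshz1* were lower, with log2 fold changes of −1.05 and −0.84 (adjusted p = 0.186 and 0.167 from edgeR), and *Meis1* was higher at 0.49 (edgeR adjusted p = 0.202). edgeR's exact test and DESeq2, which called 7.54% and 9.69% of their tested genes, each called *Nrip1* and, outside the rule for named genes, *Krt15*, which had 4, 1 and 4 counts in the controls and 22, 12 and 73 counts in *Gp130* ecKO.

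The genes with the most similar profile over the 6 uteri were found for the 3 tested members with the largest fold change, among 14763 genes with at least 1 CPM, by the root mean square distance of centred log2(CPM + 0.5). Nearest to *Crabp2* were *Slc7a11* at a distance of 0.45, *Cdh4* at 0.54 and *Ccl28* at 0.54. *Slc7a11*, the cystine transporter, had 7.44 to 15.7 CPM in the control and 97.2 to 269 CPM in *Gp130* ecKO. Nearest to *Cyp26a1* were *Slc46a2* at 0.96, *Atp13a4* at 1.12 and *Lgr5* at 1.14. *Lgr5* had 164, 12.4 and 39.7 CPM across control uteri 1 to 3, against 4.34, 1.58 and 1.12 CPM across *Gp130* ecKO uteri 1 to 3. Nearest to *Rbp4* were *Gm47547*, *Dtx3* and *Wsb1* at 0.14 each, all with their highest value in control 3. These distances describe 6 uteri and carry no test.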

How the data were processed

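Per the labels and the study's methods, total RNA of 6 uteri was made into strand-specific poly(A) libraries and read as single reads of 75 bases. The authors trimmed reads with fastp 0.23.2, removed ribosomal RNA reads, mapped to GRCm39 with STAR 2.7.10a and deposited RSEM 1.3.3 tables with expected counts, not normalized, and with TPM and FPKM, both made by the authors relative to gene length and depth. The annotation version is not given in the sources used here. Reads that map to several genes are split among them by RSEM. The members and gene lists were chosen with earlier results of these data known.

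Expected counts were rounded and tested in R 4.3.3 with edgeR 4.0.16 (filterByExpr, TMM, glmQLFit without the legacy setting, glmQLFTest, Benjamini-Hochberg adjustment over 16605 genes, called at an FDR under 0.05 and more than 2-fold). Standard errors are the log2 fold change over the square root of F. Alternatives were edgeR's exact, likelihood ratio and legacy tests, DESeq2 1.42.0, other scalings, no filter, counts not rounded, covariates and each uterus left out. The fit was tested on simulated counts before use. GENCODE M39 (GRCm39) gave symbols and coordinates for 56017 of the 56748 identifiers. Genes named are the 9 members, *Il6st*, genes of the wider and response lists with a mean of at least 1 CPM and no overlap, *Rara*, *Rarb*, *Rarg* and *Cyp26b1*, and 3 nearest profiles for each of 3 members. *Cyp26c1*, *Lrat*, *Krt15*, *Rxrb*, *Rxrg* and the single cell type markers named fall outside this rule and were picked after their values were seen. One gene of the wider list and one upstream sequence are not reported here. Nothing states that the uteri of a group came from separate matings. The p-values weigh the difference between the groups against the spread between these uteri, as each tool estimates it. No pair of uteri of a group agreed within counting noise.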

Additional observations from a re-analysis of the deposited data

How the results depend on the processing

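The number of members called moved most with the test. It was 0 with the quasi-likelihood test, 3 with edgeR's exact test, with its likelihood ratio test and with DESeq2, 1 without a filter and 1 with the read length set as a covariate, 2 at an FDR under 0.1, and between 0 and 2 on leaving out single uteri, the 2 being without control 2. The wider retinoid genes gave 0 against 2, 2 and 2, and the response genes 0 against 2, 2 and 2 with these 3 tests, and between 0 and 1 on leaving out single uteri. Over all genes the count was 26 against 1252 with the exact test, 1317 with the likelihood ratio test, 1542 with DESeq2, 105 without a filter, and 7 with the legacy fit and with the read length covariate, and between 1 and 897 on leaving out single uteri, where 897 is without control 2. The causes were not tested.

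Members without overlap between the groups were 3 in CPM and 3 in TPM, and between 3 and 6 on leaving out single uteri. They were 6 without control 2, with *Cyp26a1*, *Dhrs3* and *Rdh10* added, where 45.6% of all tested genes did not overlap, against 31.3% with all 6 uteri.

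The replicate number as a block gave 6 calls over all genes and 0 members. Deviations of same-numbered uteri correlated at 0.104, 0.0691 and −0.196, and those of uteri with different numbers at between −0.311 and 0.220. With so few uteri these values cannot show whether same-numbered uteri were handled as pairs.

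*Crabp2*, *Cyp26a1*, *Aldh1a2*, *Rbp4*, *Rdh10* and *Dhrs3* kept their direction under all 16 alternatives. *Stra6* turned to −0.00017 with the exact and likelihood ratio tests, to −0.072 with upper quartile scaling, to −0.36 without control 1 and to −0.34 without *Gp130* ecKO 2, and was at most 0.33, without control 2. *Aldh1a1* turned to −0.078 with the block, to −0.19 without control 3 and to −0.65 without *Gp130* ecKO 3, and was at most 0.59, without *Gp130* ecKO 2. *Aldh1a3*, at −0.22 without a filter, turned to 0.017 without *Gp130* ecKO 2. Depth limits *Aldh1a3*, *Rarb*, *Crabp1* and the control level of *Crabp2*, which rests on 10 counts.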
